A study of Gallus gallus with 6 samples.

Results

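The nuclear genes of the mitochondrial respiratory chain were followed in sorted chick retinal cells treated with retinoic acid (RA). Every gene symbol of the count table that begins with NDUFA, NDUFB, NDUFC, NDUFS, NDUFV, UQCR, COX4 to COX8 or ATP5, or that reads SDHA to SDHD, CYC1 or CYCS, was taken, and symbols ending in Z or W were left out. This gave 44 of the 6789 symbols in the table. They comprised 20 subunits of complex I, 3 of complex II, 5 of complex III, 6 of complex IV and 5 of complex V, which makes 39 subunits, together with CYCS, 3 complex I assembly factors and ATP5S. One further symbol, ATP5A1Z, was left out for its final letter. CYC1, SDHC and the subunits encoded in mitochondrial DNA were not analysed here.

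The RA libraries came from retinas of embryonic day 5 chick embryos cultured for 8 h with 2.5 µM RA. The control libraries came from the opposite retinas of those embryos, cultured for the same time with the solvent DMSO. All retinas were kept in DMEM with fetal bovine serum and antibiotics, then dissociated, and the Hes5.3+ cells were sorted by flow cytometry. Each library pooled 2 retinas of different embryos, and the 3 RA and 3 control libraries form 3 pairs, numbered 1, 3 and 4.

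The respiratory chain passes electrons from NADH through complex I, and from succinate through complex II, to ubiquinone, then through complex III and cytochrome c to oxygen at complex IV. Complexes I, III and IV pump protons across the inner mitochondrial membrane, and complex V, the ATP synthase, uses that gradient to make ATP. Complex II is also an enzyme of the tricarboxylic acid cycle, and all of its subunits are encoded in the nucleus. In the developing retina, dividing progenitors are known for a high rate of glycolysis, and the chain supplies ATP beside it.

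Total counts were 19808063 to 27235633 in the RA libraries and 21771962 to 26560761 in the controls. The 44 genes had mean counts of 516 to 73868 per library and all 44 passed the filter on low counts, as did 5041 genes in all. They took 1.88% to 1.96% of the counts in the RA libraries and 1.87% to 2.16% in the control libraries. Of the retinal progenitor markers 9 of 9 were tested and summed to 8323 to 11173 CPM (counts scaled to a common library size, with TMM factors) in the RA libraries and 7876 to 9619 CPM in the control libraries. Members of this list differed in direction: 5 of 9 were higher with RA in 3 of 3 pairs, beside 15.8% of all genes. PAX6 alone was lower in 3 of 3, beside 14.3% of all genes. Ganglion cell markers, 6 of 7 tested, summed to 218 to 263 CPM with RA and 250 to 308 CPM in the controls. Of these ELAVL4 was lower in 3 of 3 pairs, at 163, 198 and 168 CPM against 183, 217 and 245 CPM. ISL1, at 2.31 CPM or less, was higher in 3 of 3. In both lists 0 genes had an adjusted p under 0.05. Mesenchyme markers, 4 of 7 tested, summed to 15.3 to 27.3 CPM with RA and 18.5 to 26.7 CPM in the controls. Lens markers, 3 of 7 tested, summed to 51.1 to 67.7 CPM with RA and 39.9 to 54.2 CPM in the controls. Among them ASL1 was higher with RA in 3 of 3 pairs (edgeR adjusted p = 0.181), while CRYAB and CRYBA1 differed in sign between pairs. Pigment epithelium markers, 4 of 6 tested, summed to 46.6 to 51.3 CPM with RA and 40.5 to 46.1 CPM in the controls. Most of each sum was MITF, at 45.4, 49.4 and 41.4 CPM with RA, against 38.6, 43.2 and 42.5 CPM in the controls. Its groups overlapped, and it was lower with RA in pair 4. Blood and endothelium markers had 0 of 6 tested. CPM is not divided by transcript length, so levels are compared between libraries and not between genes. In bulk libraries, fewer cells of a type and less RNA per cell cannot be told apart.

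No respiratory chain gene passed the test for a change with RA, and the direction of the small differences depended on the embryo pair. In pair 1 all 39 subunits were lower in the RA library than in its control, with log2 CPM differences of -0.39 to -0.053. In pair 3 the RA library was lower for 19 of 39 subunits, and in pair 4 for 12 of 39. RA minus control, the median log2 difference over the 39 subunits was -0.27 in the first of these pairs, and it was 0.011 in pair 3 and 0.042 in pair 4. Over the 5041 genes tested the medians were 0.0014, -0.0021 and 0.0015 in the same pairs. Complexes I to V shared the large negative difference in pair 1. In pairs 3 and 4 the medians of complexes I, III, IV and V lay between -0.015 and 0.062. Those of complex II were -0.078 in pair 3 and -0.031 in pair 4.

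**Figure D1:**
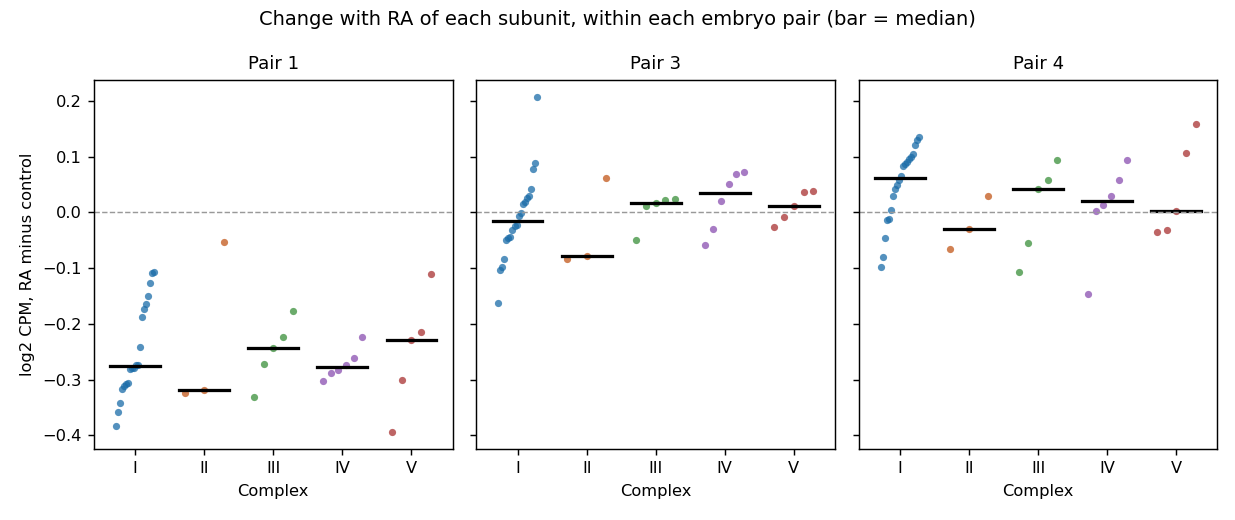
Difference in log2 CPM between the RA and the control library of each embryo pair, for every subunit (points) grouped by complex, with the median of each complex as a bar. In pair 1 all 39 points lie below 0, while in pairs 3 and 4 every complex has points on both sides of it.

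The fitted change over all 3 pairs was tested with edgeR's quasi-likelihood test with the pair as a block and Benjamini-Hochberg adjustment over 5041 genes. By this test 0 of the 44 genes had an adjusted p under 0.05, beside 1.07% of all genes tested (54 genes, and 7 in the fit without the pair as a block). By direction, 0 of 44 were lower, beside 0.119% of all genes, and 0 of 44 were higher, beside 0.952%. DESeq2 and limma-voom also called 0 of the 44. At an unadjusted p under 0.05 there was 1 gene, SDHD, or 2.27% of the 44, beside 8.89% of all genes. It was lower with RA, as were 3.15% of all genes at this threshold, while 0 of the 44 were higher, beside 5.73%. The lowest adjusted p among the 44 was 0.558. Of the 39 subunits 37 had a fitted log2 fold change below 0, with a median of -0.077, beside 51.9% of all genes and a median of -0.0072. Without pair 1 the median was 0.014 and 15 of the 39 were below 0. The subunits share their libraries, so these counts are a description.

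Standard errors of the log2 fold change ran from 0.062 to 0.10 over the 39 subunits, with a median of 0.075, beside a median of 0.091 over all tested genes that averaged 50 counts or more. The subunits averaged 3188.5 counts or more, so these medians are not matched for abundance. The 95% confidence intervals, which are not adjusted for the number of genes, reached down to -0.31 at the lowest and up to 0.19 at the highest.

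**Figure D2:**
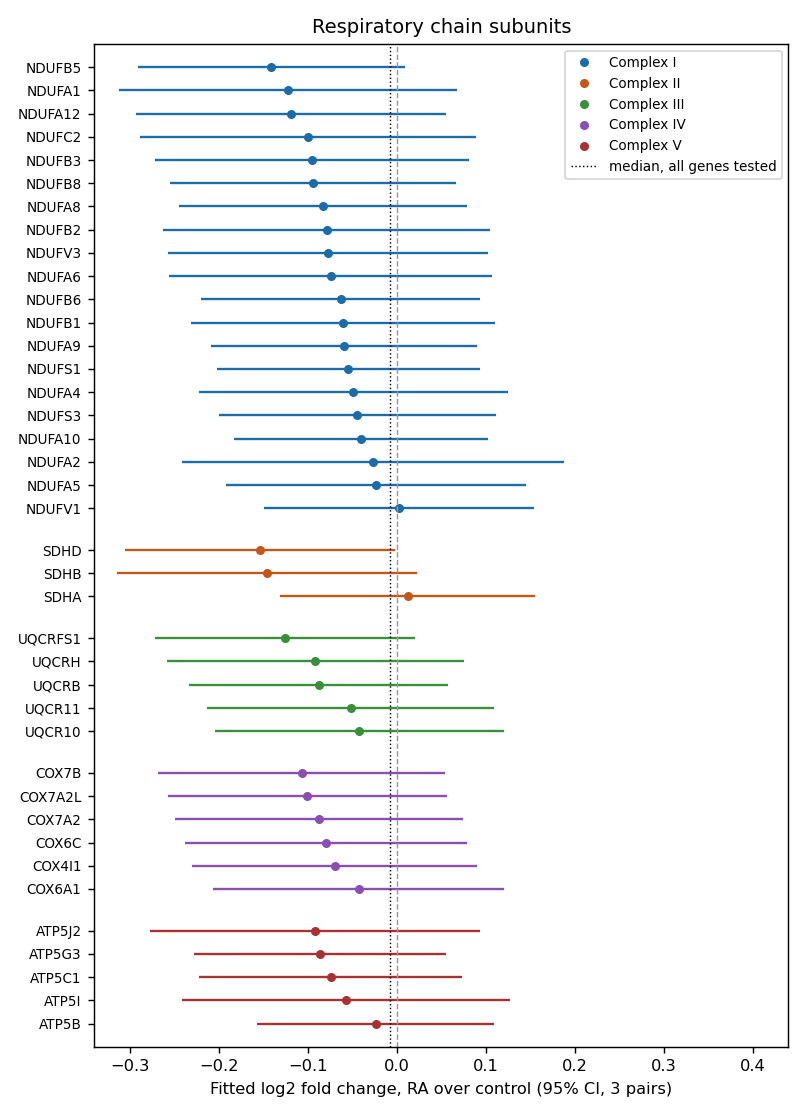
Fitted log2 fold change (RA over control) of each subunit with its 95% confidence interval, grouped by complex; the dotted line is the median of all genes tested. The interval of SDHD ends at -0.0024, and those of all the other subunits include 0.

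Complex I is the NADH dehydrogenase, built from catalytic core subunits and many accessory subunits. Its 20 genes had a median fitted log2 fold change of -0.069, and 19 of 20 were below 0. The median difference was -0.28 in pair 1, where 20 of 20 were lower with RA, -0.015 in pair 3, where 12 of 20 were lower, and 0.062 in pair 4, where 5 of 20 were lower. NDUFB5, an accessory subunit of the membrane arm, had the lowest fitted change of the complex. It had 420.1, 457 and 452 CPM in the RA libraries of pairs 1, 3 and 4, against 509.8, 472 and 483 CPM in the control libraries. The means were 443 ± 19.9 CPM with RA and 488 ± 19.6 CPM in the controls (SD, n = 3 each). The groups did not overlap, and RA was the lower of each pair. Its fitted log2 fold change was -0.14 (SE 0.070, edgeR adjusted p = 0.589).

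Of the catalytic core subunits of complex I, NDUFV1 and NDUFS1 are given in full. NDUFV1, which carries the FMN cofactor and the NADH binding site, had 312, 296 and 346 CPM in the RA libraries, against 335, 293 and 323 CPM in the control libraries. The groups overlapped throughout, and its log2 fold change of 0.0025 (SE 0.071, edgeR adjusted p = 0.991) was the only positive one in the complex. NDUFS1, the large iron-sulphur subunit that takes electrons from the NADH site, had 354, 331 and 374 CPM with RA, against 381, 354 and 364 CPM in the controls, with a log2 fold change of -0.055 (SE 0.069, edgeR adjusted p = 0.879). The differences of NDUFS1 were -0.11, -0.098 and 0.042 in pairs 1, 3 and 4, so the RA library of pair 4 was the higher one. Some accessory subunits had fitted changes as near to 0 as NDUFS1 or nearer, such as NDUFA5 at -0.023 and NDUFA2 at -0.027.

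The split between core and accessory subunits was made after their values were seen and was not tested. The 3 core subunits in the table, NDUFS1, NDUFS3 and NDUFV1, had a median difference of -0.11 in pair 1, with a range of -0.16 to -0.11. The 17 other subunits had a median of -0.28 in that pair and ranged from -0.38 to -0.13, so the ranges overlap. In pair 3 the medians were 0.014 for the core and -0.023 for the others, and in pair 4 they were 0.042 and 0.066.

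Among the accessory subunits, NDUFA10 was the most counted of the complex, with 649.7, 707 and 645 CPM in the RA libraries, against 721, 686 and 651 CPM in the controls. Its log2 fold change was -0.041 (SE 0.067, edgeR adjusted p = 0.92). NDUFA12, an accessory subunit of the peripheral arm, was the other subunit of complex I whose groups did not overlap, at 179, 193 and 194 CPM with RA, against 223, 196 and 196 CPM in the controls. In pairs 3 and 4 the difference was only -0.024 and -0.013 on the log2 scale. NDUFA4 carries a complex I symbol, but in mammals the protein has been assigned to complex IV. It had 456, 527 and 479 CPM with RA, against 564, 518 and 436 CPM in the controls, and counting it with complex IV left the median of complex IV at -0.080 beside -0.084.

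Complex II, succinate dehydrogenase, had the lowest median of the 5 complexes, at -0.15 over 3 genes, which was carried by SDHD and SDHB and not by SDHA. SDHD, a membrane anchor subunit that helps to hold the haem, had 511, 514 and 533 CPM in the RA libraries, against 638, 542 and 557 CPM in the control libraries. The means were 519 ± 11.7 CPM with RA and 579 ± 51.5 CPM in the controls (SD, n = 3 each). All RA values lay below all control values. Its log2 fold change was -0.15 (SE 0.071, 95% confidence interval -0.31 to -0.0024, unadjusted p = 0.0469, edgeR adjusted p = 0.558), and it was lower in 3 of 3 pairs.

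SDHB, the iron-sulphur subunit that relays electrons to ubiquinone, had 177, 204 and 229.9 CPM with RA, against 221, 217 and 235 CPM in the controls. The groups overlapped, although RA was the lower library in 3 of 3 pairs, with log2 differences of -0.32, -0.084 and -0.031. SDHA, the flavoprotein that oxidises succinate, had 403, 417 and 398 CPM with RA, against 418, 400.1 and 389.9 CPM in the controls. Its log2 fold change was 0.012 (SE 0.067, edgeR adjusted p = 0.978), and its 6 libraries lay within 1.07-fold of each other, the narrowest range of the 39 subunits. The log2 ratio of SDHD to SDHA was 0.34, 0.30 and 0.42 in the RA libraries of pairs 1, 3 and 4, against 0.61, 0.44 and 0.52 in the controls. The log2 ratio of SDHB to SDHA was -1.19, -1.03 and -0.79 with RA, against -0.92, -0.88 and -0.73 in the controls. Both ratios were lower with RA in 3 of 3 pairs, and since they were picked after the values were seen they were not tested.

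**Figure D3:**
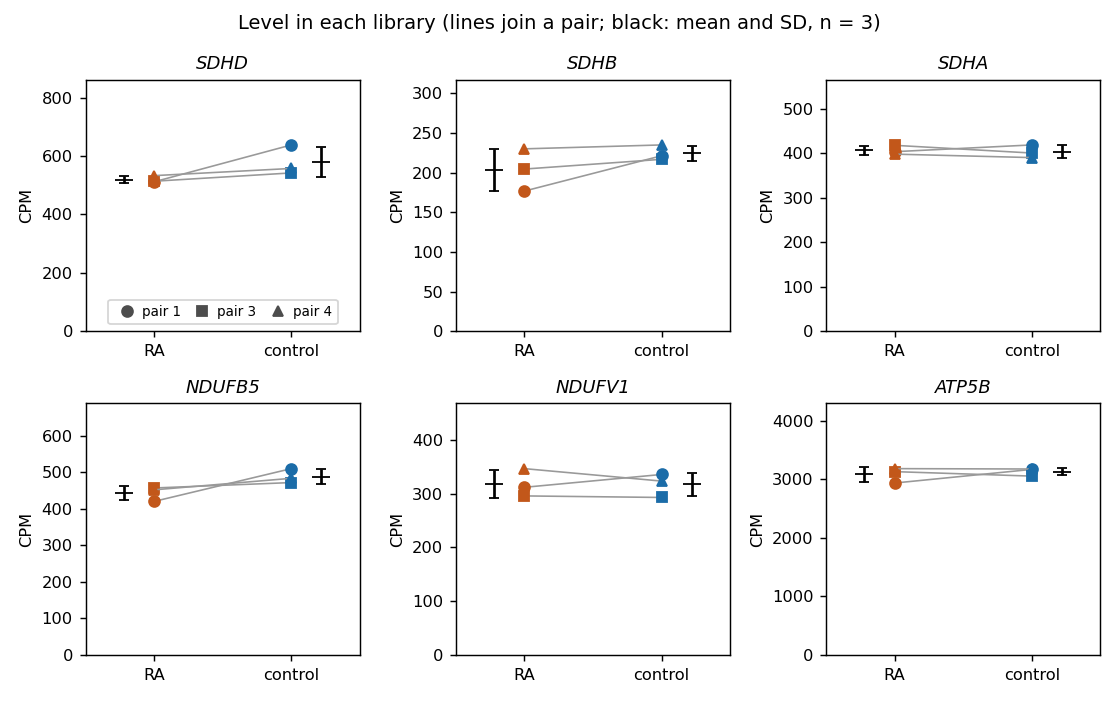
CPM in each library for 6 subunits, RA on the left and control on the right, with lines joining the libraries of a pair and black marks for the mean and SD (n = 3 each). SDHD and NDUFB5 have every RA value below every control value, whereas SDHA, NDUFV1 and ATP5B overlap.

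Complex III, the cytochrome bc1 complex, had a median of -0.088 over 5 genes, all with a fitted change below 0. UQCRFS1, the Rieske iron-sulphur protein, had 829, 870.4 and 796 CPM in the RA libraries, against 1001, 900.5 and 827 CPM in the controls. Its highest RA value lay above the lowest control value, and RA was lower in 3 of 3 pairs. Its log2 fold change was -0.13 (SE 0.068, edgeR adjusted p = 0.638). UQCR10, a small accessory subunit, had 398, 433 and 380.0 CPM with RA, against 472, 426 and 356 CPM in the controls, so RA was the lower library in pair 1 and the higher one in pairs 3 and 4. Its log2 fold change was -0.042 (SE 0.076, edgeR adjusted p = 0.925). The within-pair medians of complex III were -0.24, 0.016 and 0.042 for pairs 1, 3 and 4.

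Complex IV, cytochrome c oxidase, had a median of -0.084 over 6 genes and again 6 of 6 fitted values below 0, although 0 of 6 were lower in 3 of 3 pairs. COX4I1, a nuclear subunit through which ATP is known to regulate the enzyme in mammals, had 659, 742 and 677 CPM in the RA libraries, against 802, 706 and 676 CPM in the controls. COX6A1 was the most counted of the complex, at 645, 737 and 761 CPM with RA, against 779.6, 711 and 713 CPM in the controls. For both genes the control library of pair 1 was the highest of the 6 and the RA library of that pair the lowest. COX7B, a small subunit, had the lowest fitted change of the complex, at -0.11 (SE 0.075, edgeR adjusted p = 0.747), with 377, 406 and 378 CPM in RA libraries, against 465, 415 and 375 CPM in controls.

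COX7A2 and COX7A2L are paralogs, and in mammals the product of COX7A2L links complexes III and IV into supercomplexes. COX7A2 had 304, 335 and 308 CPM with RA, against 364, 349 and 296 CPM in the controls. COX7A2L had 394, 419.8 and 352 CPM with RA, against 459, 400.3 and 389 CPM in the controls. Their log2 fold changes were -0.088 (SE 0.076, edgeR adjusted p = 0.814) and -0.10 (SE 0.073, edgeR adjusted p = 0.758). In pairs 3 and 4 they went opposite ways, with differences of -0.059 and 0.057 for COX7A2 beside 0.069 and -0.15 for COX7A2L.

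Complex V, the ATP synthase, had a median of -0.074 over 5 genes, and 5 of 5 fitted values were below 0. ATP5B, the catalytic beta subunit, had 2939, 3134 and 3185 CPM in the RA libraries, against 3172, 3057 and 3179 CPM in the controls. Its log2 fold change was -0.024 (SE 0.062, edgeR adjusted p = 0.957), the smallest in the complex. ATP5J2, subunit f of the membrane part, had 410.3, 432 and 417 CPM with RA, against 539, 429 and 387 CPM in the controls. The RA libraries lay inside the range of the controls, and the difference of -0.39 in pair 1 was the lowest of any subunit in any pair. ATP5G3, a gene for subunit c of the rotating ring, had log2 differences of -0.21, -0.0090 and -0.035, lower in 3 of 3 pairs. The alpha subunit symbol that was left out, ATP5A1Z, had a log2 fold change of -0.045 (SE 0.063, edgeR adjusted p = 0.892).

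CYCS encodes cytochrome c, which carries electrons from complex III to complex IV and also triggers the apoptosome when released. It had 506, 525 and 443 CPM with RA, against 568, 505 and 448 CPM in the controls, with a log2 fold change of -0.044 (SE 0.069, edgeR adjusted p = 0.915). The groups overlapped. The 3 complex I assembly factors had lower counts and differed in sign. NDUFAF2 had 58.9, 66.1 and 62.5 CPM with RA, against 66.3, 66.5 and 67.3 CPM in the controls, which did not overlap. NDUFAF5, which modifies a core subunit of complex I in mammals, had 76.7, 60.1 and 54.9 CPM with RA, against 70.5, 58.0 and 57.8 CPM in the controls, and was the one gene of the 44 with a higher level in the RA library of pair 1. NDUFAF8 had 23.2, 27.1 and 28.04 CPM with RA, against 28.9, 21.7 and 22.7 CPM in the controls. ATP5S, which is not a subunit despite its symbol, had 16.7, 25.4 and 24.5 CPM with RA, against 24.9, 21.1 and 19.4 CPM in the controls.

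The share of subunits lower in every pair was close to that of all genes, but pair 1 limits what this shows. In pair 1 all 39 subunits were lower, beside 49.7% of all genes. Being lower in 3 of 3 pairs thus rested on pairs 3 and 4 only, and being higher in 3 of 3 could not occur. Of the 39 subunits 6 were lower with RA in 3 of 3 pairs, or 15.4%, beside 14.3% of all genes tested. They were NDUFB5, NDUFA12, SDHD, SDHB, UQCRFS1 and ATP5G3, and 0 of the 39 were higher in 3 of 3, beside 15.8% of all genes. Every RA value lay below every control value for 4 of the 44 genes (NDUFB5, NDUFA12, SDHD and NDUFAF2), or 9.09%, beside 3.05% of all genes. The opposite arrangement occurred in 0 of 44, beside 4.42% of all genes. Since 43 of the 44 were lower with RA in pair 1, it could have occurred for NDUFAF5 only.

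Whether the complexes differed from each other was read from their medians within each pair, where anything that scales a whole library cancels. With 3 pairs a two-sided sign-flip test cannot give a p under 0.25, and the members of a complex are not replicates, so no test was made. Of the 10 pairs of complexes, 4 differed in the same direction in all 3 embryo pairs, and each of these had complex II as the lower one. These 4 share the same complex II medians and are not separate observations. Complex I minus complex II was 0.042, 0.063 and 0.093 in pairs 1, 3 and 4. Complex II minus complex III was -0.075, -0.094 and -0.072, complex II minus complex IV was -0.040, -0.11 and -0.052, and complex II minus complex V was -0.090, -0.089 and -0.034. The complex II median rests on 3 genes and equals the value of SDHB or SDHD in every pair, while SDHA was at -0.053, 0.061 and 0.028. As a mean over subunits the fitted change of complex II was -0.096, beside -0.067 to -0.081 for the other complexes. As a ratio of summed CPM, averaged over the pairs, it was -0.094, beside -0.052 to -0.090 on the log2 scale. The order in 3 of 3 pairs was read from medians only and depends on that choice. By summed CPM it failed in pair 1, where complexes I, III and IV were proportionally lower than complex II, and complex V was not. Sums with RA and in the control of pair 1 were 1091 and 1277 CPM for complex II, and 2966 and 3587 CPM for complex IV. Among complexes I, III, IV and V the mean differences over the 3 pairs lay between -0.014 and 0.012, with SDs of 0.027 to 0.057.

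The libraries of pair 1 stood at the ends of the range for many subunits, but not for all. The control library of pair 1 was the highest of the 6 for 32 of 39 subunits, and the RA library of pair 1 was the lowest for 19 of 39. The lowest was the control library of pair 4 for 11 subunits and the RA library of pair 4 for 6. Summed over the 39 subunits, the RA libraries of pairs 1, 3 and 4 held 17700.1, 19151 and 18371 CPM, against 20719.9, 19048.5 and 18199 CPM in the controls. The RA values of pairs 3 and 4 lay within the range of the controls, and that of pair 1 lay below it.

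Ribosomal protein genes had their lowest differences in the same pair. The 37 genes for mitochondrial ribosomal proteins had median differences of -0.22, -0.019 and 0.028 in pairs 1, 3 and 4, and 35 of 37 were lower with RA in pair 1. The 53 genes for cytosolic ribosomal proteins had medians of -0.33, -0.0024 and -0.070, and 53 of 53 were lower in pair 1. The control sample of pair 1 had the fewest sorted cells and the least RNA, 57000 cells and 52.8 ng, and its RA sample had 98000 cells and 106.7 ng, where the others had 161000 to 200000 cells. Amplification started from 1 ng of RNA in each, per the protocol. The part of cell number and RNA yield in the difference of pair 1 was not tested.

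**Figure D4:**
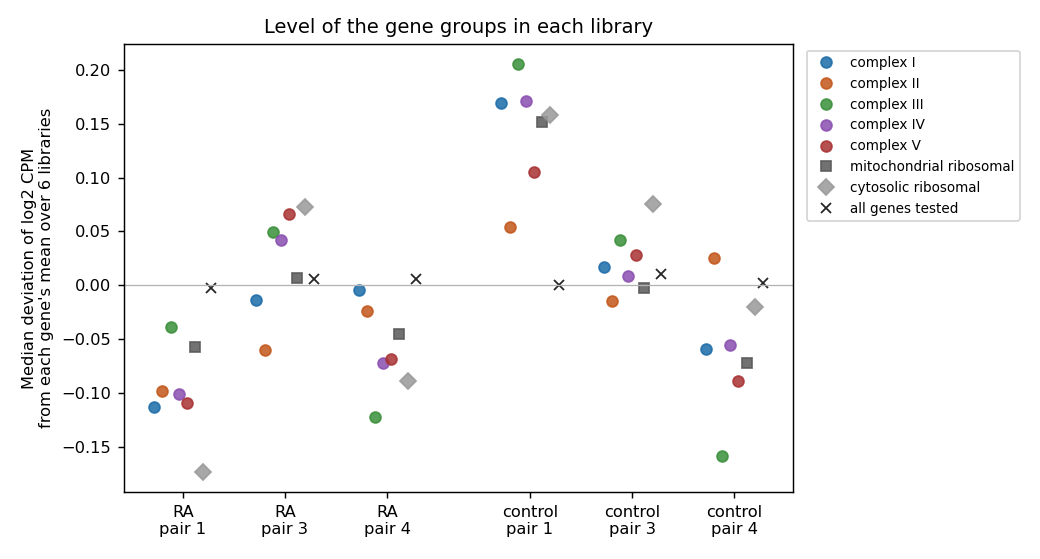
Median deviation of log2 CPM from each gene's mean over the 6 libraries, for each complex, for 2 groups of ribosomal protein genes and for all genes tested; RA libraries are on the left and controls on the right. The control library of pair 1 holds the highest value of every complex (0.054 to 0.20), and all genes tested stay within 0.011 of 0.

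Differences between embryo pairs were tested in the same edgeR fit, a test added after the data were seen. The pair terms compare the level shared by the RA and the control library of a pair. They do not test whether the difference between RA and control varied from pair to pair. Of the 44 genes 1 had an adjusted p under 0.05 for the pair terms, or 2.27%, beside 13.6% of all genes tested. It was ATP5I, subunit e of the ATP synthase, with 194, 262 and 211 CPM in the RA libraries of pairs 1, 3 and 4, against 239, 267 and 189 CPM in the controls (edgeR adjusted p = 0.0401). Pair 3 was the highest in both groups. RefSeq places ATP5I on chromosome Z, and of the 44 genes also NDUFAF2, which was not called (edgeR adjusted p = 0.866 for the pair terms). ATP5A1Z, left out for its final letter, had 1049, 1586 and 1217 CPM with RA, against 1118, 1591 and 1249 CPM in the controls. Pair 3 was the highest there too. The part of this chromosome in the pair difference was not tested. The call of ATP5I was lost with DESeq2 size factors, with scaling by library size only and without pair 3 or pair 4. Across all 6 libraries the highest value of a subunit was 1.07 to 1.41 times its lowest, with a median of 1.24, beside a median of 1.34 over all tested genes that averaged 50 counts or more. The subunits averaged 3188.5 counts or more, so these medians too are not matched for abundance.

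Beyond the subunits, 19 of 47 listed assembly factors of the complexes were in the table and tested, including the 3 NDUFAF genes above. Of these 0 passed the test in either direction and 0 had an unadjusted p under 0.05. Their median log2 fold change was -0.065, with a range of -0.14 to 0.10, and 16 of 19 were below 0. Their median differences were -0.14, 0.012 and -0.074 in pairs 1, 3 and 4. Of 12 listed nuclear regulators of mitochondrial genes, 5 were tested (NRF1, GABPA, GABPB1, PPARGC1A and TFAM) and 0 passed, with a median of -0.044. The median difference of these regulators was 0.096 in pair 1, where 1 of 5 was lower with RA. It was -0.12 in pair 3, where 5 of 5 were lower, and -0.15 in pair 4, where 3 of 5 were lower. PPARGC1A had only 3.02 to 6.85 CPM over the 6 libraries, with differences of 0.86, -1.12 and -0.20 in pairs 1, 3 and 4.

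The authors' deposited table lists all 44 genes, and 0 of them have an adjusted p under 0.05 there, beside 12 of its 4752 genes (0.253%). At an unadjusted p under 0.05 the authors' deposited table has 0 of the 44, and it gives SDHD a p of 0.0777. The authors' deposited table gives log2 fold changes below 0 for 37 of the 39 subunits, with a median of -0.076. It rests on the same libraries and is not independent.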

How the data were processed

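RNA from sorted cells was amplified and sequenced as single reads of 100 bases, per the labels' protocols. The submitters' processing notes name STAR 2.5.3a, HTSeq 0.6p1, edgeR 3.18.1 and the build galGal5; the annotation is not given in the sources used here. The authors deposited raw counts per gene symbol. The authors also deposited a CPM table of 4752 genes, whose values for the 44 genes differ from the CPM used here by at most 0.214%. They further deposited a table of log2 fold changes with p-values. Its name calls the comparison paired, but its test is not stated in the file headers.

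Counts were analysed with edgeR 4.0.16 in R 4.3.3: filterByExpr (10 counts at the median depth, 15 in total), TMM, estimateDisp and the quasi-likelihood F-test with the pair as a block, Benjamini-Hochberg over 5041 genes. Standard errors are the absolute coefficient divided by the square root of F. Pair differences use log2 CPM with a prior count of 2. Complex medians leave out CYCS, the NDUFAF genes and ATP5S. DESeq2 1.42.0 and limma 3.58.1 served as alternatives, with other scalings, no filter, no block and each pair left out. The fit was tested on simulated data.

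The pairing comes from the series' design, in which controls are the opposite eyes of the same embryos; deviations from the group means correlated at 0.29, 0.25 and 0.34 in pairs 1, 3 and 4. Same-group libraries differed beyond sampling noise (chi-square per degree of freedom at least 49.2). The members and lists were chosen with earlier results of these data known. Genes named are those with an unadjusted p under 0.05, the extremes and the most counted of each complex, a set of core subunits and paralogs; others, such as NDUFA12, ATP5G3, ATP5I and the assembly factors, were named after their values were seen. Counting intervals would cover counting error only, and no molecular identifiers are named. RefSeq (GRCg7b) lists 43 of the 44 names as current symbols and 1 as a synonym. Apart from the chromosome of ATP5I and NDUFAF2 no position is given, since that build is not the one behind the counts.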

Additional observations from a re-analysis of the deposited data

How the results depend on the processing

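The count of respiratory chain genes called stayed at 0 of 44 under every scaling, filter, tool and left-out pair that was run. Over all genes the count was 54 of 5041 with the pair as a block and 7 of 5041 with no replicate block. It was 85 of 6166 without the low-count filter and 88 of 5041 with the DESeq2 Wald test. With 1 pair omitted it ran from 36 of 5091 to 81 of 5091. With shares this small, 0 of 44 was close to the share over all genes in every setting. The block changed no call among the 44. Pair 1 set the sign of the medians of complexes I, III, IV and V, while that of complex II stayed below 0 without it. With 1 pair omitted, the median over the 39 subunits ranged from -0.13 to 0.014, and the highest value came without pair 1, where 15 of 39 were below 0. Those ranges were -0.14 to 0.013 for complex I, -0.19 to -0.059 for complex II, -0.14 to 0.027 for complex III, -0.14 to 0.011 for complex IV and -0.12 to 0.018 for complex V. The spread between the highest and the lowest complex median, 0.077, ranged from 0.083 to 0.088 in those fits. The fitted sign turned for 22 of 39 subunits without pair 1, for 2 without pair 3 and for 1 without pair 4, and for 0 of 39 under the other settings. Among the genes recomputed singly, those that turned were NDUFA10 (-0.082 to 0.013), UQCR10 (-0.10 to 0.057), COX4I1 (-0.14 to 0.036), COX6A1 (-0.10 to 0.071), ATP5J2 (-0.18 to 0.058), ATP5B (-0.054 to 0.018), CYCS (-0.093 to 0.017), NDUFV1 (-0.039 to 0.056) and SDHA (-0.013 to 0.043); none was called. The pair difference of ATP5I was not called under DESeq2 size factors or library size only (0 of 44 each), and 0 to 3 genes were called when a pair was left out, the 3 being ATP5I, ATP5G3 and UQCR10 without pair 1. The unadjusted p of SDHD was above 0.05 with no replicate block (log2 fold change -0.16), with upper-quartile scaling (-0.15) and without pair 3 (-0.19), where the fold was close to or beyond the -0.15 of all pairs, and without pair 1, where it shrank to -0.073. Simulated log2 changes of 0.1, 0.5 and 1 were recovered for 0%, 63.2% and 100% of the 200 changed genes among 5041. Those changed genes were not limited to the subunits. These shares therefore do not give the chance of detecting such changes in the subunits. Standard errors of 0.062 to 0.10 on the log2 scale limit what could be detected for the subunits. The cause of these differences was not tested.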
